A study of Mus musculus with 6 samples.

Results

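Fatty acid uptake and lipid droplet genes were followed as a group of 10: Lpl, Cd36, Fabp4, Fabp5, Acsl1, Dgat1, Plin2, Pnpla2, Angptl4 and Pparg. They were found by symbol among the 33456 genes of the deposited matrices, and all 10 were present. The cells came from visceral fat of mice, which was digested with collagenase and sorted for the leukocyte surface protein CD45 and for CD11b, which myeloid cells carry. There were 3 samples of the high-fat diet group (HFD) and 3 control samples. The labels name no strain, genotype, age, sex, diet composition or duration for either group. They also do not say whether a sample is 1 animal or a pool, so each p-value reflects the spread among these libraries, which may be partly technical.

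Circulating triglyceride is too large to enter cells. Lipoprotein lipase, the product of Lpl, hydrolyses it at the cell surface, and Angptl4 encodes a secreted inhibitor of that enzyme. The freed fatty acids are taken up with the help of the scavenger receptor CD36 and carried in the cytosol by the fatty acid-binding proteins FABP4 and FABP5. Acsl1 encodes an enzyme that activates them with coenzyme A, and Dgat1 encodes an enzyme of the final step of triglyceride synthesis. The stored lipid forms droplets, which perilipin 2 (Plin2) coats and adipose triglyceride lipase (Pnpla2) breaks down. PPARgamma, the product of Pparg, is a nuclear receptor that binds fatty acids and drives many of these genes. Macrophages of obese fat are known for holding lipid, and the lipid-loaded ones are often marked by Gpnmb and Mmp12.

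The libraries shared cell barcodes to an unusual degree. Of 2195 distinct barcodes in the matrices, 1082 were listed in several samples and 370 in all 6. Between 62.4% and 90.2% of a sample's barcodes were also listed elsewhere. Each barcode was therefore counted only in the sample where it had most unique molecular identifiers (UMIs), which left, after filtering, 1128 HFD and 986 control cells. In control sample 2 this assignment was less clear: 139 of its cells had a second entry with over 0.25 of the UMIs of the largest, out of 147 such cells in all 6 samples. The counted UMIs per sample lay between 3587086 and 5708323 in HFD samples and between 1997647 and 3874349 in control samples.

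Cells were sorted into gates by UMIs of genes outside the 10. Cells with at least 6 UMIs of Col3a1 and Col1a2 together formed the fibroblast gate (195 HFD and 19 control cells). Of the remaining cells, those with at least 6 UMIs of the C1q genes formed the macrophage gate (822 HFD and 784 control cells), after cells with T or B cell genes had been set aside. The 9 macrophage markers, which include the C1q genes that set this gate, were all detected in the macrophage gate of every sample. Fibroblasts lack CD45, for which the cells were sorted, yet 214 cells met that gate. The fibroblast and fat progenitor markers, 9 of 9 detected, summed to 28997 to 32754 CPM in its HFD sums. They include Col3a1 and Col1a2, so part of this sum follows from the gate itself. CPM is the usual depth-scaled count, the UMIs of a gene in a sum relative to all UMIs of that sum. Of those 214 cells, 103 also carried at least 6 C1q UMIs. Macrophage-gated cells were deeper in HFD samples, with a median of 11600.0 UMIs, than in control samples, with 7997.0.

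In macrophage-gated cells, 6 of the 10 genes rose on the high-fat diet: Lpl, Cd36, Plin2, Pparg, Acsl1 and Pnpla2. None fell by this test. At an unadjusted p under 0.05, which 4037 of the 9692 tested genes passed, Dgat1 was lower and Fabp4, Fabp5 and Angptl4 were higher. The rise was 2.9-fold for Lpl, 2.8-fold for Pparg, 2.6-fold for Plin2, 2.1-fold for Cd36 and 1.6-fold for both Acsl1 and Pnpla2. Fabp4, Fabp5, Angptl4 and Dgat1 did not pass the test. Calls are edgeR quasi-likelihood tests on UMI sums per sample, adjusted by Benjamini-Hochberg over all 9692 genes tested, at a threshold of 0.05. By the same rule 29.4% of all tested genes were called, 13.1% higher and 16.3% lower. The median log2 fold change of the 10 was 0.90, against -0.02 over all genes tested. With library sizes in place of TMM scaling, an alternative chosen after seeing the data, 59.5% of the calls were higher, against 44.5% in the reported fit; every one of the 10 kept its direction.

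**Figure D1:**
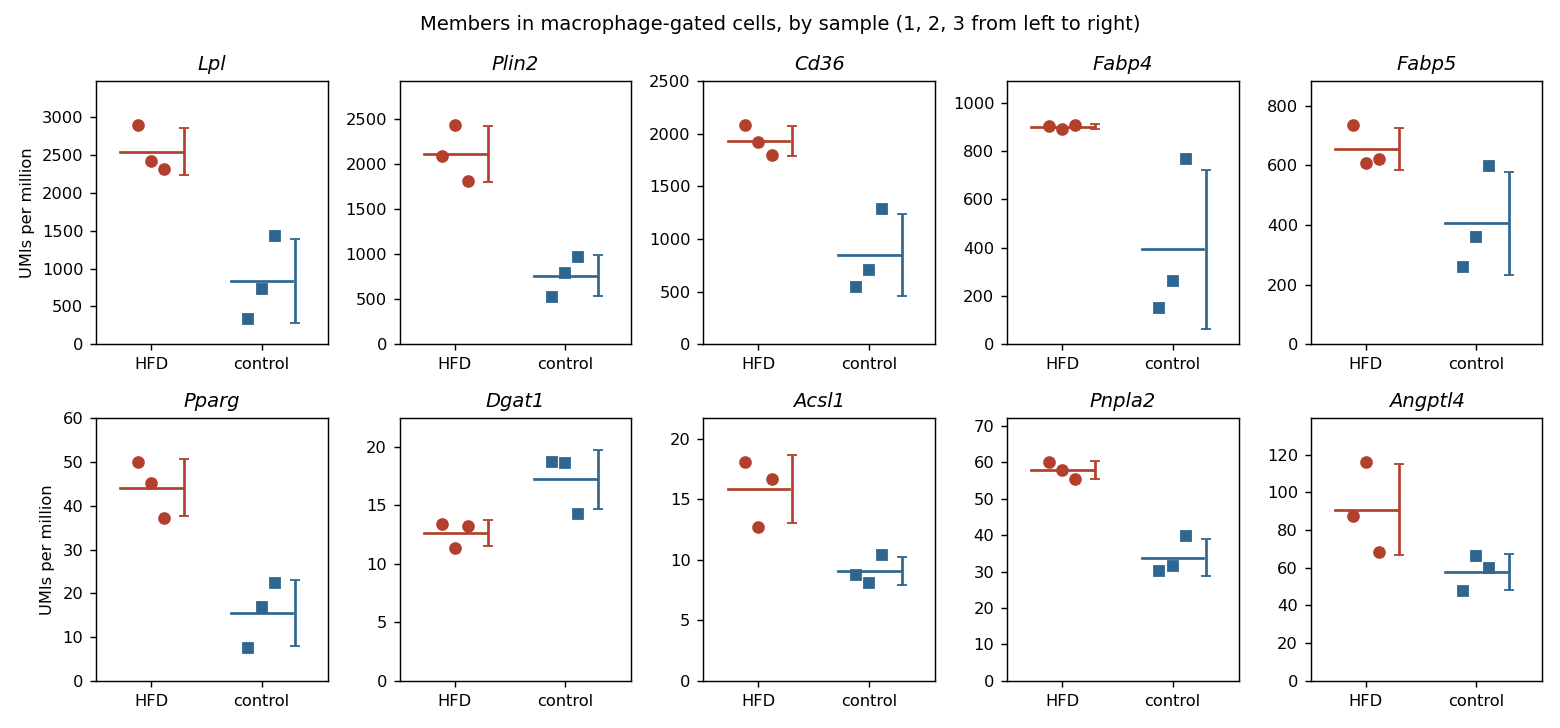
CPM of each gene in the macrophage-gated cells of each sample; points are samples 1, 2 and 3 from left to right, the horizontal line is the mean and the bar 1 SD (n = 3 per diet), and each panel has its own axis from 0. The control points spread widely for Lpl and Fabp4, where control sample 3 is the highest control at 1431 and 768 CPM.

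Lpl, the gene of the triglyceride-hydrolysing enzyme, stood at 2901, 2424 and 2318 CPM in the macrophage gates of the 3 HFD samples, against 336, 725 and 1431 in those of the 3 control samples. The groups did not overlap, and the control samples differed among themselves more than the HFD samples did. The log2 fold change was 1.52 ± 0.39 (SE; edgeR adjusted p = 0.017). Without HFD sample 1 the adjusted p was 0.058, and without control sample 2 it was 0.066.

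Cd36, the uptake receptor, stood at 2085, 1921 and 1794 CPM in HFD macrophages, against 545, 707 and 1287 in control macrophages. Again no control sample reached an HFD sample, and control sample 3 came nearest. On the log2 scale the difference was 1.09 ± 0.25 (SE; edgeR adjusted p = 0.0099). When only barcodes listed in exactly 1 sample were counted, it was 0.45 (adjusted p = 0.057).

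Fabp4 and Fabp5, the fatty acid carriers, did not pass the test, and for both of them control sample 3 lay close to the HFD samples. Fabp4 stood at 904, 889.6 and 908 CPM in HFD macrophages, against 148, 261 and 768 in control macrophages. Its log2 fold change was 1.11 ± 0.45 (SE; edgeR adjusted p = 0.094). Fabp5 stood at 736, 607 and 621 CPM in HFD macrophages, against 259, 361 and 598 in control macrophages. Its log2 fold change was 0.59 ± 0.24 (SE; edgeR adjusted p = 0.089). Without control sample 3, Fabp4 gave 2.05 (adjusted p = 0.00022) and Fabp5 gave 0.98 (adjusted p = 0.0017). Control sample 3 also had 41.9% of its macrophages in the Gpnmb gate, against 2.73% and 14.3% in the other controls; the part of this in the result was not tested.

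Plin2, the droplet coat gene, had the smallest adjusted p of the 10. It stood at 2087, 2430.03 and 1809 CPM in HFD macrophages, against 519, 793 and 969 in control macrophages. The lowest HFD sample was well above the highest control sample. The log2 fold change was 1.37 ± 0.19 (SE; edgeR adjusted p = 0.0011), and it passed the threshold in all 19 alternative fits.

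Acsl1, the fatty acid-activating enzyme, was sparse. It had 84, 37 and 62 UMIs in all in the HFD macrophage gates, or 18.1, 12.8 and 16.7 CPM, against 29, 13 and 24 UMIs in the control gates, or 8.76, 8.07 and 10.4 CPM. The groups did not overlap. On the log2 scale the difference was 0.70 ± 0.21 (SE; edgeR adjusted p = 0.034), but 8 of 17 alternatives kept the call; with DESeq2 the adjusted p was 0.12.

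Dgat1, the triglyceride-synthesising enzyme, pointed the other way without passing the test. It stood at 13.4, 11.4 and 13.2 CPM in HFD macrophages, against 18.7, 18.6 and 14.3 in control macrophages. The log2 fold change was -0.55 ± 0.19 (SE; edgeR adjusted p = 0.055).

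Pnpla2, the droplet lipase, stood at 60.2, 57.9 and 55.5 CPM in HFD macrophages, against 30.2, 31.7 and 39.8 in control macrophages. Both groups were tight and well apart. On the log2 scale the difference was 0.67 ± 0.12 (SE; edgeR adjusted p = 0.0037). When every cell was reduced to 2000 UMIs before summing, it was 0.60 (adjusted p = 0.12).

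Pparg, the nuclear receptor, stood at 50.1, 45.2 and 37.2 CPM in HFD macrophages, against 7.55, 16.8 and 22.5 in control macrophages. The groups did not overlap. Control sample 1 was the lowest control, as it was for all the other genes but Acsl1 and Dgat1. The log2 fold change was 1.46 ± 0.29 (SE; edgeR adjusted p = 0.0057), and all 19 alternatives kept the call.

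Angptl4, the secreted inhibitor of lipoprotein lipase, stood at 87.6, 116 and 68.2 CPM in HFD macrophages, against 47.4, 66.4 and 59.6 in control macrophages. The lowest HFD and the highest control sample nearly met. On the log2 scale the difference was 0.55 ± 0.19 (SE; edgeR adjusted p = 0.055). Over 19 alternatives it ran from -0.03, over barcodes listed in exactly 1 sample, to 0.72, with adjusted p from 0.0019 to 0.94, and 8 of them passed.

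Fat cells and vessel cells also use Lpl or its product, Cd36 and Fabp4. The 9 adipocyte markers summed to 16.4 to 30.0 CPM in HFD macrophage gates and 26.1 to 36.9 in control ones, with Adrb3 at 0 in all 6. The 9 endothelial markers summed to 23.1 to 77.0 CPM in HFD macrophage gates and 24.2 to 97.6 in control ones. The part of either in the results was not tested.

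Counted per cell, the diet difference in Lpl, Plin2 and Cd36 showed in the median macrophage. The cells of a diet were pooled for this median, which hides the spread over samples. After each cell was reduced to 2000 UMIs, the median macrophage held 3 Lpl UMIs in HFD and 0 in control samples, 3 and 1 UMIs of Plin2, and 3 and 1 UMIs of Cd36. At this depth 77.8% ± 2.5 of HFD macrophages had an Lpl UMI, against 44.0% ± 12.8 of control macrophages (SD, n = 3 each). For Plin2 the shares were 89.6% ± 1.9 in HFD and 65.8% ± 6.9 in control macrophages, and for Cd36 82.5% ± 3.9 in HFD and 65.2% ± 8.3 in control macrophages. The exact two-sided permutation p was 0.1 for each of the 3 shares, the smallest that 3 against 3 samples allow (0.21 after adjustment over the 30 shares tested). All 822 HFD macrophages and 765 of 784 control macrophages were deep enough to be counted.

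Fabp4 and Fabp5 UMIs were held by fewer cells. The share of macrophages with a Fabp4 UMI was 52.2% ± 6.0 in HFD and 24.98% ± 11.95 in control samples, and that for Fabp5 was 46.8% ± 3.1 in HFD and 23.1% ± 7.3 in control samples (SD, n = 3 each; exact permutation p = 0.1 for each). With the cells of a diet pooled, the top decile held 58.8% of all Fabp4 UMIs in HFD and 79.3% in control macrophages. Single cells reached 122 and 111 Fabp4 UMIs of the 2000. For Lpl the pooled top decile held 33.9% of the UMIs in HFD and 59.9% in control macrophages. Across cells of 1 sample, the Spearman correlation of Lpl with Cd36 was 0.50, 0.50 and 0.46 in the HFD samples and -0.06, 0.15 and 0.24 in the control samples. Other pairs overlapped between the diets. Lpl with Plin2 gave 0.42, 0.43 and 0.29 in HFD and 0.07, 0.09 and 0.37 in control samples. Lpl with Fabp4 gave 0.26, 0.31 and 0.22 in HFD and 0.04, 0.17 and 0.37 in control samples. These are correlations over sparse counts of cells that share a library.

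Free RNA can put UMIs into cells that do not make a gene. So 32 of the 115 lymphocyte-gated cells, those with fewer than 6 C1q UMIs, were read as a background and are called cells without C1q. Their median depth was 3540.0 UMIs, against 9554.5 in macrophages. The other 83, with at least 6 C1q UMIs and a median depth of 15831.0 UMIs, were left out. How this choice moves the background was not tested. At 2000 UMIs per cell, 28.1% of the 32 background cells had an Lpl UMI, 34.4% a Plin2 UMI, 34.4% a Cd36 UMI and 9.38% each a Fabp4 and a Fabp5 UMI. For Lpl this background also differed by diet, at 42.9% of 14 HFD and 16.7% of 18 control cells; its part in the diet difference was not tested. The macrophage shares above exceed the background within each diet. The macrophage shares of Dgat1, 1.77% in HFD and 3.82% in control samples, lay below the 12.5% of these cells, and those of Acsl1, 3.37% and 2.01%, lay around their 3.12%. Lymphocytes may make these enzymes themselves, so no reading is drawn from the sparse genes' shares.

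Of the genes that rose in macrophages, Plin2, Cd36, Pparg, Pnpla2 and Acsl1 have a promoter entry in RefSeq (build GRCm38.p6), and Lpl has none. The windows run from 250 bases before to 50 after the gene start; 5 of the 10 genes matched, with 8 windows. They were searched on both strands for 2 copies of AGGTCA in a row with any 1 base between them, the repeat that PPARgamma is known to bind with its partner receptor RXR. An exact match was in 0.0396% of all 32851 promoter windows and in 0 of the 8. A match with up to 2 mismatches was in 3.86% of all windows, and in those of Plin2 and Cd36. The windows of Pparg, Pnpla2 and Acsl1, which rose as well, had 4 or 5 mismatches at best. The Plin2 match lies 225 to 213 bases upstream of the start in the window at chr4:86670010-86670309, minus strand. The Cd36 match lies 63 to 51 bases upstream in the window at chr5:17835847-17836146, minus strand. Both matches read in the sense of the repeat on the strand opposite the gene. The windows are printed 5′ to 3′ along the gene, with the match in capitals:
Plin2: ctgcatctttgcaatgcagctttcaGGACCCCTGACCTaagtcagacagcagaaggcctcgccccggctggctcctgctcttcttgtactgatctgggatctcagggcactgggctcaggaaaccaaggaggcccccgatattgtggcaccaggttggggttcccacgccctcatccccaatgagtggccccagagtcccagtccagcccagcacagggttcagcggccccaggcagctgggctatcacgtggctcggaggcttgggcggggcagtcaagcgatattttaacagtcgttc
Cd36: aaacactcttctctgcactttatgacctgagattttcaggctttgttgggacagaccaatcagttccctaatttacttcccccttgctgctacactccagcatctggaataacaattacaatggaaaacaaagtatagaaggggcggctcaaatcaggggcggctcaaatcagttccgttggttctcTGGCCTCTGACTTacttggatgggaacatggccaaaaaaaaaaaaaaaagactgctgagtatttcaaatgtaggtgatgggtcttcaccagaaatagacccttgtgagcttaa
A match describes letters in a window and is not shown to be a binding site.

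Summed over all cells of a sample, where a change in cell make-up and a change per cell cannot be told apart, 6 genes rose and 1 fell. Lpl, Cd36, Plin2, Pparg, Pnpla2 and Angptl4 rose, and Dgat1 fell. The log2 fold changes were 1.38 ± 0.36 for Lpl, 1.00 ± 0.24 for Cd36, 1.23 ± 0.19 for Plin2, 1.29 ± 0.30 for Pparg and 0.60 ± 0.12 for Pnpla2 (SE). Fabp4, Fabp5 and Acsl1 did not pass, with edgeR adjusted p of 0.12, 0.10 and 0.13. By the same rule 32.4% of the 10450 genes tested were called, 15.2% higher and 17.2% lower. With library sizes alone 64.6% of all calls were higher, against 47.0% with TMM, the median over all genes was 0.13 on the log2 scale in place of -0.02, and Dgat1 was at -0.40 (adjusted p = 0.093). Angptl4 stood at 120, 154 and 93.9 CPM in HFD samples, against 52.1, 61.6 and 57.1 in control samples. Its log2 fold change was 0.97 ± 0.17 (SE; edgeR adjusted p = 0.0028), against 0.55 within macrophages; the difference between these was not tested. The fibroblast-gated share of cells, where Angptl4 is highest, was 16.6%, 17.6% and 17.9% in HFD samples, against 2.06%, 0.769% and 2.66% in control samples; its part in this result was not tested. Dgat1 stood at 13.8, 11.7 and 15.2 CPM in HFD samples, against 18.8, 19.5 and 15.8 in control samples (log2 fold change -0.54 ± 0.17, edgeR adjusted p = 0.040), and 4 of 15 alternatives kept that call. Lpl lost its call without HFD sample 1 (adjusted p = 0.066), HFD sample 2 (0.051) or control sample 2 (0.063), and with barcodes listed in exactly 1 sample (0.085). Cd36 and Pnpla2 lost theirs in that last setting too (0.47 and 0.13).

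**Figure D2:**
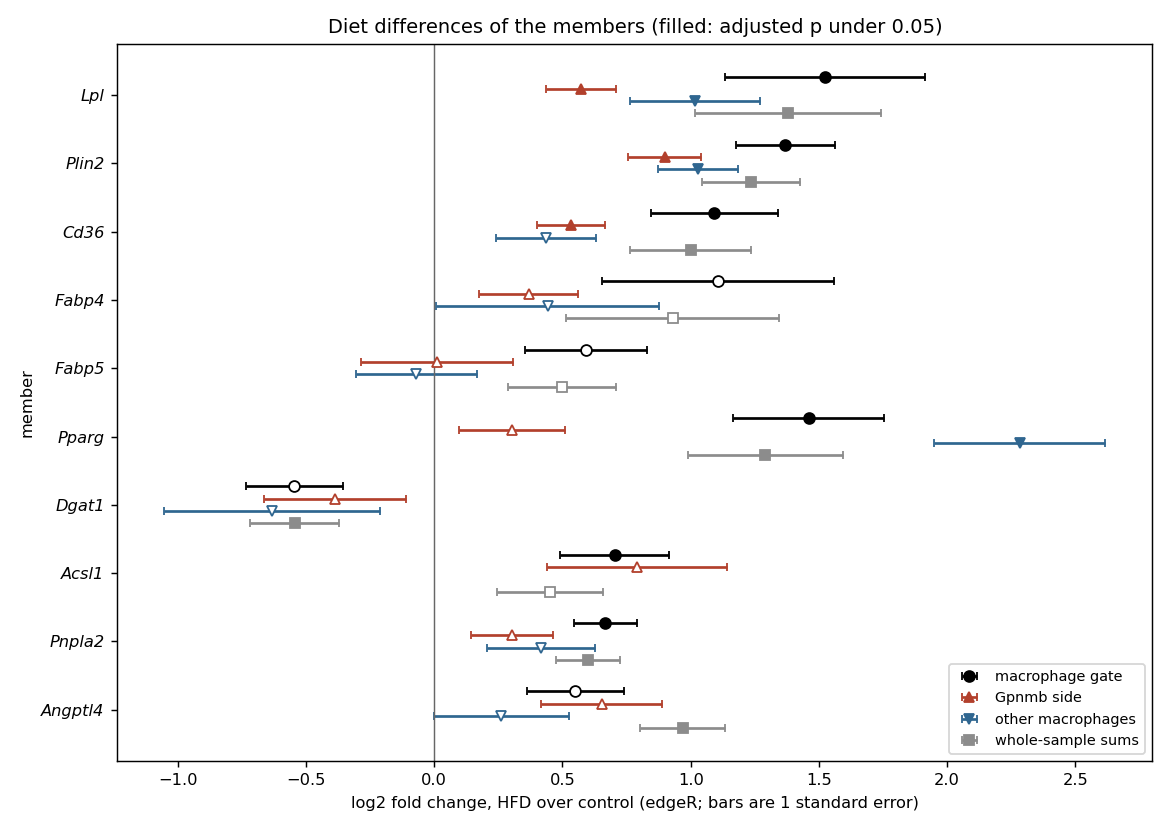
Log2 fold change of HFD over control for each gene, with bars of 1 standard error, in macrophage-gated cells (circles), the Gpnmb side of macrophages (upward triangles), other macrophages (downward triangles) and whole-sample sums (squares); filled symbols passed an edgeR adjusted p of 0.05. The macrophage-gate value of Lpl, 1.52, lies above both of its values within the sides, 0.57 and 1.02.

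Fibroblast-gated cells were set against macrophage-gated cells within the 3 HFD samples, each of which gave both sums. Of the 10 genes, 8 were lower in fibroblasts than in the whole macrophage gate: Lpl, Cd36, Fabp4, Fabp5, Plin2, Acsl1, Pnpla2 and Pparg. Angptl4 was 4.6-fold higher, and Dgat1 did not pass the test (log2 fold change 0.59 ± 0.31). A term for sample was in the fit. Of the 9314 genes tested, 51.0% were called by this rule, 26.2% higher and 24.8% lower, while 9 of the 10 genes were. The median log2 fold change of the 10 was -1.42, against -0.00 over all genes tested.

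**Figure D3:**
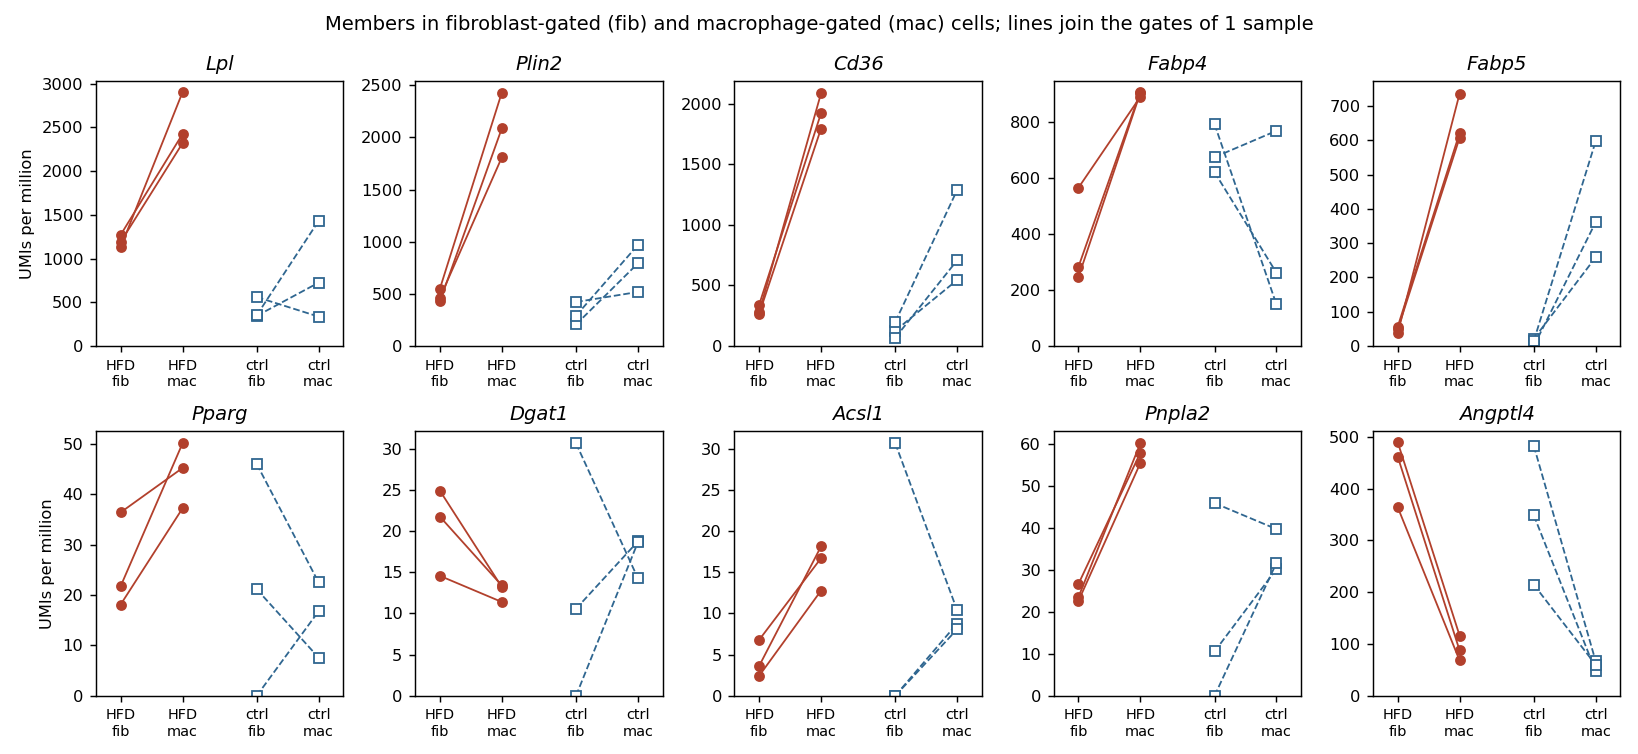
CPM of each gene in fibroblast-gated (fib) and macrophage-gated (mac) cells; each line joins both gates of 1 sample, with filled circles and solid lines for HFD samples and open squares and dashed lines for control samples, whose fibroblast sums hold 8, 2 and 9 cells. Angptl4 lies higher in fibroblasts in all 6 samples, from 214 to 489.9 CPM.

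Of the uptake genes, Lpl differed less between the gates than Cd36. It stood at 1130.3, 1271 and 1189.8 CPM in the fibroblast gates of the 3 HFD samples, against 2901, 2424 and 2318 in their macrophage gates. The log2 fold change was -1.19 ± 0.09 (SE; edgeR adjusted p = 7.1e-11). Cd36 stood at 281, 342 and 267 CPM in HFD fibroblasts, against 2085, 1921 and 1794 in HFD macrophages. For Cd36 the difference was -2.82 ± 0.11 on the log2 scale (SE; edgeR adjusted p = 3.8e-17). In each of the 3 HFD samples the fibroblast value of both genes was the lower one, by more than the samples differed. The macrophage gate holds cells inside and outside the Gpnmb gate, which is defined below. In HFD macrophages outside it, Lpl stood at 1026, 1383 and 1038 CPM, and the fibroblast values lay within that range. Cd36 stood there at 895, 1115 and 1018 CPM, above fibroblasts. Fibroblasts were not tested against these cells. In control sample 1, with 8 fibroblast-gated cells, Lpl was the higher one in fibroblasts, at 559.6 CPM, against 336 in macrophages.

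The difference was wider for Fabp5 than for Fabp4, the other carrier. Fabp5 stood at 38.0, 48.5 and 56.5 CPM in HFD fibroblasts, against 736, 607 and 621 in HFD macrophages (log2 fold change -3.91 ± 0.16, edgeR adjusted p = 1.2e-16). Fabp4 stood at 246, 565 and 283 CPM in HFD fibroblasts, against 904, 889.6 and 908 in HFD macrophages (log2 fold change -1.48 ± 0.15, edgeR adjusted p = 1.0e-08). With control sample 1 and control sample 3 added, whose fibroblast gates hold 8 and 9 cells, the Fabp4 difference was -0.72 (adjusted p = 0.10). In control samples 1 and 2 Fabp4 was the higher one in fibroblasts, at 792 and 620.5 CPM, against 148 and 261 in their macrophages.

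Of the genes of activation and storage, Plin2, Pnpla2 and Acsl1 were lower in HFD fibroblasts. Dgat1 stood at 21.7, 14.6 and 24.9 CPM in HFD fibroblasts, from 12, 6 and 11 UMIs, against 13.4, 11.4 and 13.2 in HFD macrophages, and did not pass. Plin2 stood at 429, 550.5 and 464 CPM in HFD fibroblasts, against 2087, 2430.03 and 1809 in HFD macrophages (log2 fold change -2.24 ± 0.10, edgeR adjusted p = 7.1e-16). Pnpla2 stood at 23.5, 26.7 and 22.6 CPM in HFD fibroblasts, against 60.2, 57.9 and 55.5 in HFD macrophages (log2 fold change -1.36 ± 0.22, edgeR adjusted p = 1.2e-05). Acsl1 had 6 UMIs in all in HFD fibroblasts, and its log2 fold change was -2.003 ± 0.47 (edgeR adjusted p = 0.00094). That call was lost when fibroblast-gated cells with C1q were left out (adjusted p = 0.17).

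Of the regulators, Angptl4 was the single gene of the 10 called higher in HFD fibroblasts. It stood at 462, 489.9 and 364 CPM in HFD fibroblasts, against 87.6, 116 and 68.2 in HFD macrophages. The log2 fold change was 2.19 ± 0.12 (SE; edgeR adjusted p = 3.3e-14), and all 15 alternatives kept the call. Pparg stood at 21.7, 36.4 and 18.1 CPM in HFD fibroblasts, from 12, 15 and 8 UMIs, against 50.1, 45.2 and 37.2 in HFD macrophages. Its log2 fold change was -0.94 ± 0.24 (SE; edgeR adjusted p = 0.0021), and it did not pass without HFD sample 1 (adjusted p = 0.061).

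The macrophage C1q genes gave UMIs in the fibroblast gate too. Pooled over HFD samples, C1qa, C1qb and C1qc in fibroblasts stood at 8.70%, 8.57% and 7.26% of their macrophage level. Fabp5 stood at 7.06% of its macrophage level, Cd36 at 15.1%, Plin2 at 22.8%, Fabp4 at 39.0% and Lpl at 46.0%. Fabp5 in fibroblasts was thus at the level of the C1q genes, and also at that of the background lymphocytes, 47.0 CPM. Pooled over the HFD background lymphocytes, Plin2 stood at 399 CPM and Cd36 at 216 CPM. By sample, Plin2 ranged there from 192 to 529 CPM and Cd36 from 132 to 328 CPM, overlapping the fibroblast values above. Pnpla2, at 83.1 CPM from 5 UMIs, lay above its fibroblast values, while Lpl (233 CPM) and Fabp4 (83.1 CPM) lay below theirs. The part of free RNA in the fibroblast values was not tested. With fibroblast-gated cells that carried C1q left out, 7 of the 8 lower genes stayed called, all but Acsl1. Adipoq, Plin1, Lep and Adrb3, markers of mature fat cells, were at 0 in the HFD fibroblast gate, and the adipocyte list summed to 5.43 to 9.70 CPM there. Mesothelial markers summed to 149 CPM in HFD sample 3 and to at most 2.43 in the other HFD fibroblast sums; the part of this in the results was not tested.

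The diet difference within fibroblasts has no test, because the control gates hold 8, 2 and 9 cells. Lpl stood at 1130.3, 1271 and 1189.8 CPM in HFD fibroblasts, against 559.6, 345 and 352 in control fibroblasts, from 53, 5 and 23 control UMIs. Fabp4 stood at 246, 565 and 283 CPM in HFD fibroblasts, against 792, 620.5 and 674 in control fibroblasts, from 75, 9 and 44 control UMIs. So Lpl was higher and Fabp4 lower in each HFD sum than in each control sum. How many of all genes separate likewise in these small sums was not counted. Angptl4 stood at 462, 489.9 and 364 CPM in HFD fibroblasts, against 348, 483 and 214 in control fibroblasts, and these overlapped. In the 19 control cells the other 7 genes had between 2 and 62 UMIs in all. Beside Lpl, Fabp4 and Angptl4, control values above those of macrophages rested on 2 or 3 UMIs each, for Pparg in control samples 1 and 3 and for Acsl1, Dgat1 and Pnpla2 in control sample 3.

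In the small gates few cells stood behind each value and no test was run. The Cd209a gate, whose cells carry a dendritic cell lectin, held 4 HFD and 31 control cells, and the Plac8 gate, whose cells carry monocyte genes, held 14 HFD and 12 control cells. Lpl, pooled over the cells of a diet, stood at 361 CPM in HFD and 385 in control cells of the Cd209a gate, and at 728 in HFD and 509 in control cells of the Plac8 gate. In the lymphocyte-gated cells without C1q it stood at 233 CPM in the 14 HFD and 178 in the 18 control cells. Pooled in the same way, macrophages held 2586 CPM of Lpl in HFD and 773 in control samples, and fibroblasts 1190.2 in HFD and 464 in control samples. Pooled, fibroblasts thus lay above the Plac8 gate in HFD samples and below it in control samples. The control order rested on control sample 2, whose Plac8 gate held 839 CPM, with all 21 Lpl UMIs in 1 cell. In control samples 1 and 3 the Plac8 gate held 117 and 299 CPM, below the fibroblast values given above. In the HFD samples it held 969, 156 and 851 CPM, with 30 of the 54 pooled Lpl UMIs in 1 cell of HFD sample 1. In the Cd209a gate the control samples held 69 Lpl UMIs. Of these, 1 cell of control sample 3 had 23 and 1 cell of control sample 2 had 13. Plin2 stood at 361 CPM in HFD and 402 in control cells of the Cd209a gate, and at 796 in HFD and 404 in control cells of the Plac8 gate, against 2083 and 724 in HFD and control macrophages. Cd36 stood at 657 CPM in HFD and 179 in control cells of the Cd209a gate, and at 283 in HFD and 386 in control cells of the Plac8 gate, against 1946 and 818 in HFD and control macrophages. The pooled values were below those of macrophages within each diet, but 2 values of single samples were not. Lpl in the 5 Plac8-gated cells of control sample 2 stood at 839 CPM, against 725 in its macrophages. Cd36 in the 3 Plac8-gated cells of control sample 1 stood at 940 CPM, from 8 UMIs, against 545 in its macrophages.

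The 118 cells outside all gates were read after their values had been seen, with no test. They were split by Ear2, an eosinophil-associated ribonuclease gene that some myeloid cells express, at 2 UMIs. In the 53 cells with Ear2, Lpl stood at 2604, 320.03 and 2106 CPM in 3, 2 and 3 HFD cells, against 2389, 1512 and 1698 in 9, 18 and 18 control cells. In the 65 cells without Ear2 it stood at 464, 291 and 319 CPM in 8, 8 and 10 HFD cells, against 2993, 1468 and 1813 in 4, 21 and 14 control cells. In control samples Lpl was thus above the macrophage level of 336, 725 and 1431 CPM in the ungated cells with Ear2 and in those without it.

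Macrophages were divided by the Gpnmb gate, defined as at least 2 UMIs of Gpnmb and Mmp12 together. The Gpnmb side made up 84.5%, 78.5% and 73.9% of macrophages in HFD samples, against 2.73%, 14.3% and 41.9% in control samples. Of the 10 genes, 6 were higher on the Gpnmb side than in other macrophages: Lpl, Plin2, Cd36, Fabp4, Fabp5 and Pnpla2. None was lower, at an unadjusted p under 0.05 either. By this rule 9.95% of 7256 tested genes were called, 4.33% higher and 5.62% lower. The median log2 fold change of the 10 was 0.59, against -0.01 over all genes tested. The fit used the 3 HFD samples and control samples 2 and 3 with a term for sample, since control sample 1 has 9 cells on the Gpnmb side. Cells on the Gpnmb side were deeper, with a median of 13252.0 UMIs in HFD and 10247.0 in control samples, against 7006.0 and 7485.0 for other macrophages. Its part in the difference was not tested.

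Lpl stood at 3069, 2583 and 2518 CPM on the Gpnmb side of the HFD samples, against 1026, 1383 and 1038 in their other macrophages. In control samples 2 and 3 it stood at 1529 and 1953 on the Gpnmb side, against 505 and 794 in other macrophages. All 5 samples moved the same way, with a log2 fold change of 1.29 ± 0.09 (SE; edgeR adjusted p = 1.1e-08). Fabp5 gave 1.31 ± 0.21 (adjusted p = 0.00024), Fabp4 0.97 ± 0.12 (adjusted p = 1.7e-05), Cd36 0.89 ± 0.08 (adjusted p = 6.5e-07) and Plin2 0.67 ± 0.08 (adjusted p = 1.1e-05), all by edgeR. Pnpla2 gave 0.52 ± 0.15 (edgeR adjusted p = 0.036) and lost its call when any 1 of the 5 samples was left out (adjusted p 0.056 to 0.12). Fabp4 was at 0.27 (adjusted p = 0.30) when the gate asked for at least 4 UMIs, and Cd36 was at 0.50 (adjusted p = 0.055) over barcodes listed in exactly 1 sample.

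Fabp5 was uneven here. It stood at 775, 666 and 677 CPM on the HFD Gpnmb side, against 306, 226 and 263 in HFD other macrophages. In control sample 3 it stood at 942 on the Gpnmb side, against 177 in other macrophages, while in control sample 2 both sides were alike, at 348 and 365. Pparg, Dgat1, Acsl1 and Angptl4 did not pass between the sides, with log2 fold changes of 0.36 ± 0.27, 0.09 ± 0.29, -0.28 ± 0.28 and 0.03 ± 0.14. In the HFD samples alone Pparg was at -0.17. The approximate 95% interval for Angptl4 ran from -0.25 to 0.30 and that for Pparg from -0.16 to 0.88.

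**Figure D4:**
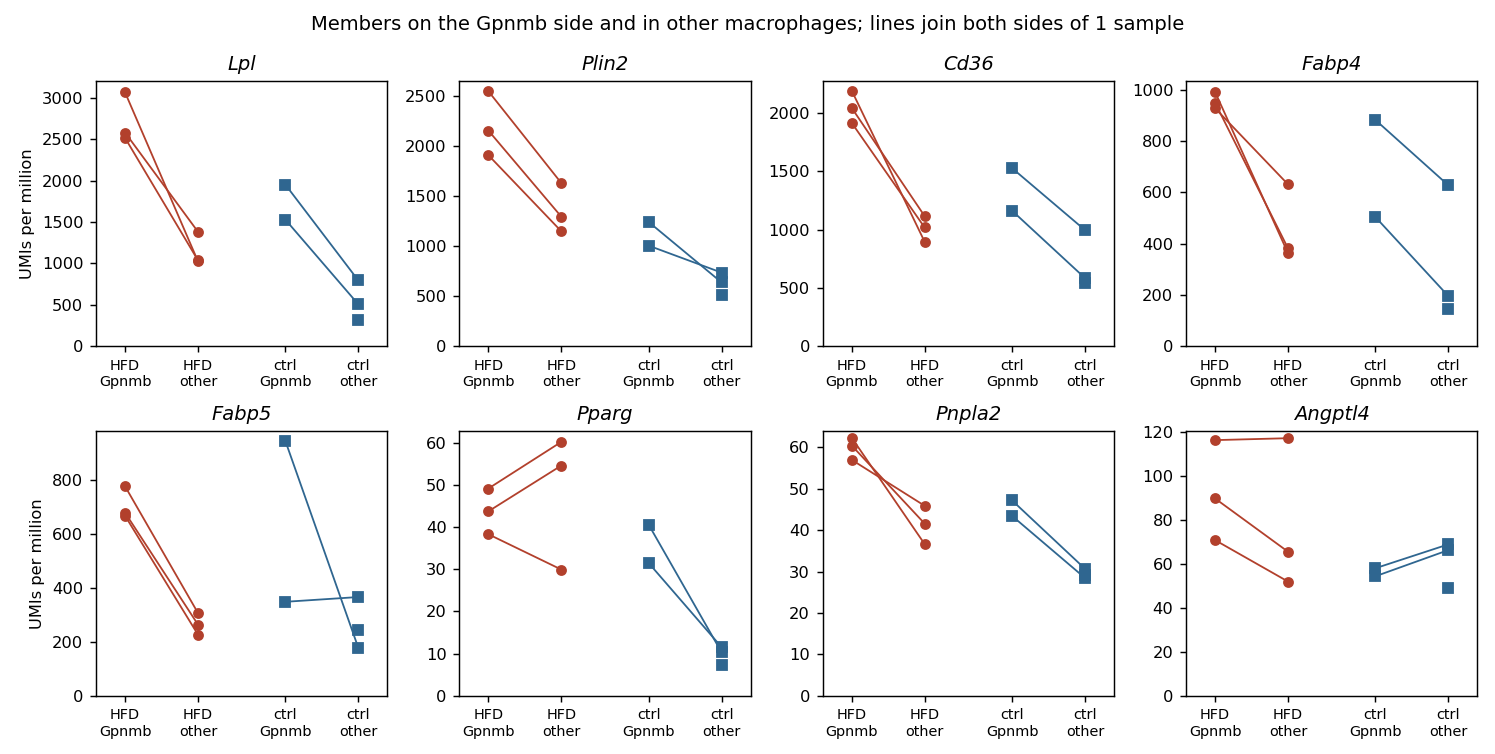
CPM of 8 of the genes on the Gpnmb side of macrophages (Gpnmb) and in other macrophages (other), HFD samples as circles and control samples as squares; each line joins both sides of 1 sample, and control sample 1, with 9 cells on the Gpnmb side, is drawn for other macrophages only. Lpl is higher on the Gpnmb side in each joined sample, at 3069 against 1026 CPM in HFD sample 1.

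The diet was then compared within each side. On the Gpnmb side 3 genes rose: Plin2 by 0.90 ± 0.14 (edgeR adjusted p = 0.0045), Lpl by 0.57 ± 0.13 (adjusted p = 0.025) and Cd36 by 0.53 ± 0.13 (adjusted p = 0.030), on the log2 scale. There 10.3% of all tested genes were called, 3.97% higher and 6.35% lower. In other macrophages 3 genes rose as well: Plin2 by 1.03 ± 0.16 (edgeR adjusted p = 0.0034), Lpl by 1.02 ± 0.25 (adjusted p = 0.036) and Pparg by 2.28 ± 0.33 (adjusted p = 0.0028). There 6.98% of tested genes were called, 2.84% higher and 4.14% lower, and Acsl1 was too low to be tested. The Gpnmb-side fit had 3 HFD samples against control samples 2 and 3, and the other had all 6 samples.

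Pparg in other macrophages stood at 60.2, 54.6 and 29.9 CPM in HFD samples, from 23, 21 and 15 UMIs, against 7.20, 10.3 and 11.506 in control samples, from 23, 13 and 12 UMIs. On the Gpnmb side it stood at 49.2, 43.8 and 38.3 CPM in HFD samples, against 40.5 and 31.5 in control samples 2 and 3. So Pparg was high on both sides in HFD samples and low in other macrophages of control samples. The difference of the diet effects between the sides was -1.79 ± 0.43 on the log2 scale (edgeR adjusted p = 0.14), against a background of 0.179% of all tested genes called, 0.0138% higher and 0.165% lower. None of the 10 genes passed this test by edgeR, the single tool run for it. At an unadjusted p under 0.05 Pparg did, and no other of the 10, while 390 of all 7256 genes tested did. Fabp5 did not pass on either side, with 0.01 ± 0.30 on the Gpnmb side and -0.07 ± 0.24 in other macrophages, with 95% intervals from -0.57 to 0.59 and from -0.53 to 0.39. On the Gpnmb side it was -0.50 (adjusted p = 0.052) without control sample 2 and 1.0005 (adjusted p = 0.0086) without control sample 3.

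These values within the sides rested on single samples in part. On the Gpnmb side the Lpl call was lost without HFD sample 1 (adjusted p = 0.090), HFD sample 2 (0.051) or control sample 2 (0.12). The Cd36 call there passed without control sample 3 and was lost without any other single sample (0.0501 to 0.10). In other macrophages the Lpl call was lost without any 1 of the 3 HFD samples (0.086 to 0.12) or without control sample 2 (0.095). The Plin2 calls passed whenever 1 sample was left out, on both sides, and so did the Pparg call in other macrophages. With all entries counted as deposited, so that shared barcodes enter several samples, Plin2 on the Gpnmb side was 0.07 (adjusted p = 0.86), Lpl was 0.02 (adjusted p = 0.95) and Cd36 was 0.21 (adjusted p = 0.23); in other macrophages Plin2 was 0.44 (adjusted p = 0.095) and Lpl 0.32 (adjusted p = 0.43).

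Other genes of fatty acid handling were read from a list of 78. In macrophages 58 were tested by diet, 14 rose (24.1%) and 9 fell (15.5%), against 13.1% and 16.3% of all genes tested, so the share that fell was near that of all genes. The median log2 fold change was 0.20, against -0.02 over all genes. Of 12 uptake and binding genes tested, 3 rose and 2 fell, and of 6 lipolysis genes 1 rose and none fell. Lipa, the lysosomal acid lipase, rose by 1.41 ± 0.27 (edgeR adjusted p = 0.0044), and Slc27a1, a fatty acid transporter, by 1.39 ± 0.27 (adjusted p = 0.0051). Nr1h3, which encodes the sterol-sensing receptor LXRalpha, rose by 1.53 ± 0.15 (adjusted p = 0.00027). Of 10 oxidation genes, 3 rose: Hadhb by 0.74 ± 0.14 (adjusted p = 0.0039), Hadha by 0.56 ± 0.14 (adjusted p = 0.015) and Acadl by 0.48 ± 0.12 (adjusted p = 0.017); Cpt1a, which controls entry of fatty acids into mitochondria, fell by 0.46 ± 0.11 (adjusted p = 0.015). Scarb1 and Lrp1, lipoprotein receptors, rose by 0.76 and 0.64, and Plin3, another droplet coat gene, by 0.43, on the log2 scale.

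Of 7 synthesis and desaturation genes tested, 3 fell and 2 rose. Scd1, the stearoyl-CoA desaturase, fell by 1.89 ± 0.38 on the log2 scale (edgeR adjusted p = 0.0056). Elovl5, an elongase, fell by 1.17 ± 0.19 (adjusted p = 0.0020), and Acly, which makes cytosolic acetyl-CoA, fell by 0.63 ± 0.16 (adjusted p = 0.016). Elovl1 and Fads1 rose by 0.62 and 0.74. Elsewhere in the list Slc27a3, a transporter-family acyl-CoA synthetase, fell by 3.81 ± 0.34 (adjusted p = 0.00018), and Acsl4, an acyl-CoA synthetase, fell by 1.03 ± 0.16 (adjusted p = 0.0019). Ppard, a relative of Pparg, fell by 1.03 ± 0.32 (adjusted p = 0.036). Fam213b, which was listed with the droplet coat genes although it is not known as a coat protein, fell by 0.52.

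**Figure D5:**
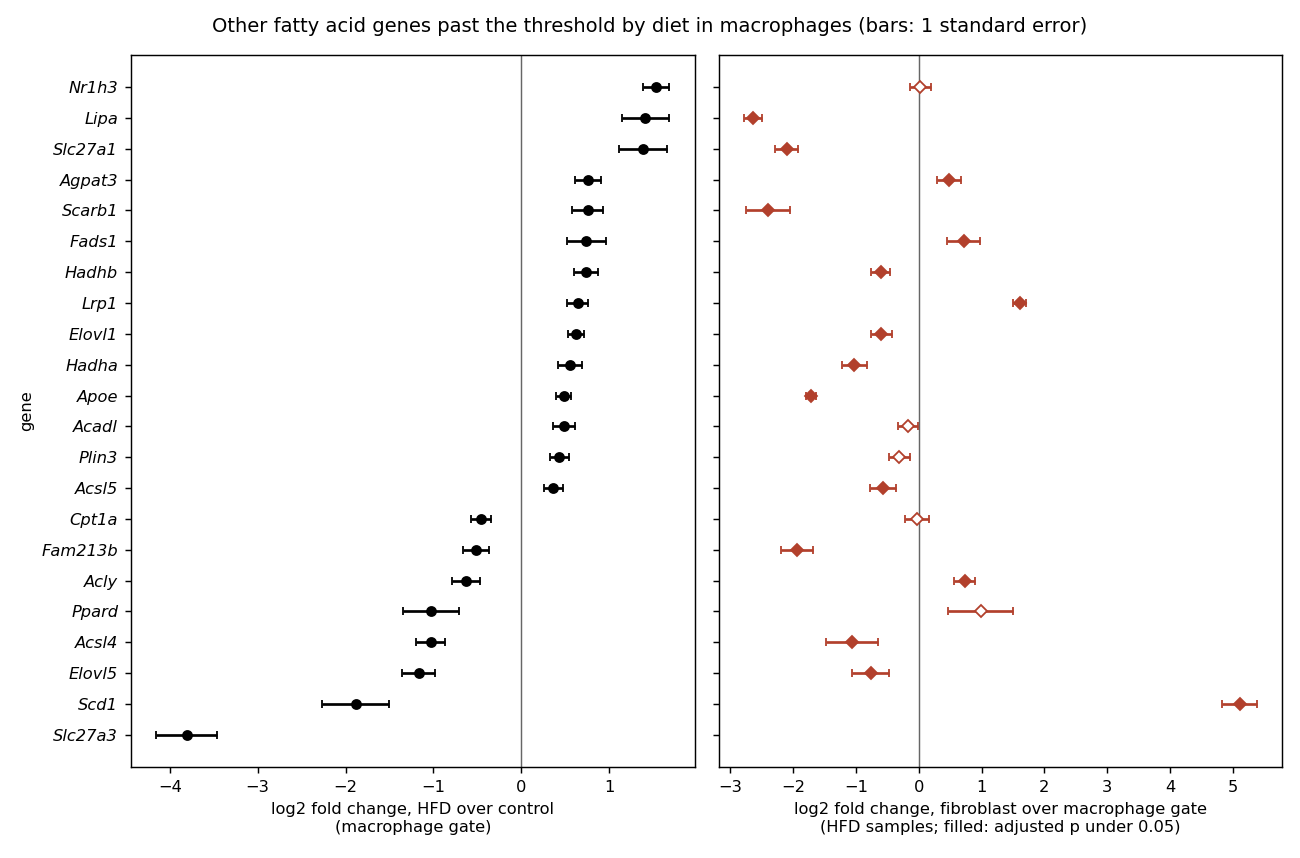
Left, log2 fold change of HFD over control in macrophage-gated cells for listed genes that passed an edgeR adjusted p of 0.05; right, log2 fold change of the fibroblast over the macrophage gate in HFD samples for the same genes where tested, filled where it passed; bars are 1 standard error. Scd1 is the gene furthest to the right on the fibroblast side, at 5.11, and lies at -1.89 by diet.

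The same list was read between the gates. Of 57 genes tested against macrophages, 13 were higher (22.8%) and 20 lower (35.1%) in HFD fibroblasts, against 26.2% and 24.8% of all genes tested. The share that was higher was thus near that of all genes. The higher ones included the lipoprotein receptor gene Vldlr (log2 fold change 5.81 ± 0.24), Angptl2 (5.33 ± 0.30), the desaturases Scd1 (5.11 ± 0.27) and Scd2 (3.15 ± 0.37), the droplet gene Plin4 (4.35 ± 0.59) and G0s2, whose product inhibits the lipase encoded by Pnpla2 (4.80 ± 0.18). Of the 8 synthesis and desaturation genes tested, 5 were higher and 2 lower. The lower ones included the scavenger receptor gene Msr1 (-4.28 ± 0.39), Lipa (-2.64 ± 0.14), Hilpda, whose product is another inhibitor of that lipase (-2.93 ± 0.16), and Slc27a1 (-2.10 ± 0.19). On the Gpnmb side of macrophages, 10 of 47 tested genes were higher (21.3%, against 4.33% of all genes tested), with Lipa at 1.12 ± 0.10, Nr1h3 at 0.86 ± 0.18 and Slc27a1 at 0.80 ± 0.13, and 1 was lower (2.13%, against 5.62%), Apoe at -0.29 ± 0.09.

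The levels of each gene were also compared with those of 5055 other genes over 14 sums of gate and sample with at least 20 cells. These sums share libraries, diets and gates, so the correlations describe the pattern only. Lpl was most like Dync1i2 (Pearson r = 0.97), Plin2 most like Atp6v1b2 (0.98), Cd36 most like Lgals3 (0.98), Fabp5 most like Tnfaip8l2 (0.95), Pnpla2 most like Hpgds (0.97) and Acsl1 most like Tcirg1 (0.93). Pparg was most like Por (0.96), Dgat1 most like Fam49a (0.90) and Angptl4 most like Sord (0.97). Fabp4 had the lowest best match, and it was another of the 10: Lpl, at 0.87.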

How the data were processed

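Single cells from 3 HFD and 3 control samples were read from the matrices that the authors deposited, which hold whole-number UMI counts per gene and cell, not normalized, as their values show. The submitters' processing notes name Cell Ranger, Seurat 2.4 and the build mm9; the sources used here do not say how cell barcodes were called. Entries with at least 200 genes and at most 10% mitochondrial UMIs were kept (5402 of 5511), and each barcode was counted only in the sample with its largest entry, which left 2114 cells. No doublet caller was run. UMIs were summed per sample and gate (at least 20 cells) and tested with edgeR 4.0.16 in R 4.3.3 (TMM, filterByExpr, quasi-likelihood, Benjamini-Hochberg over all genes tested, threshold 0.05); the tests were tested on simulated data. Errors are SE of the log2 fold change, or SD over samples. Alternatives were DESeq2 1.42.0, RLE scaling, no filter, other gates, other barcode rules, thinned cells and leaving out each sample. The 10 genes, the list of 78 and the gates were chosen with earlier results of these data known. All 10 genes are named in each comparison; of the list, genes past the threshold may be named, and for each gene its closest in pattern. Library-size scaling, the split by Ear2, and the fibroblast level as a percentage of the macrophage level were chosen after seeing the data. Replicate numbers did not pair the samples. Fits use HFD over control, the fibroblast over the macrophage gate, or the Gpnmb side over other macrophages; comparisons of gates within samples have a term for sample. Counts over the list include genes that are not reported here by name.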

Additional observations from a re-analysis of the deposited data

How the results depend on the processing

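Most calls kept their direction and their side of the threshold, with fewer exceptions in the fibroblast comparison (144 of 148 fits of single genes) than by diet in macrophages (150 of 186) or in whole sums (127 of 149). The number of genes called moved more. For whole sums (3389) it was 2233 to 3333 when 1 sample was left out and 1940 over barcodes listed in exactly 1 sample. For macrophages (2851) it was 1769 to 2929 with 1 sample left out, 1126 over such barcodes and 1050 with cells thinned to 2000 UMIs. For fibroblasts against macrophages (4750) it was 2474 over such barcodes. For the Gpnmb gate (722) it was 465 to 800 with 1 sample left out, 426 with DESeq2, 2065 with entries as deposited, 113 over such barcodes and 1434 at a gate of at least 4 UMIs. For the difference between the sides (13) it was 0 to 31 with 1 sample left out and 3 as deposited. By diet it was 436 to 796 on the Gpnmb side (977) and 167 to 409 in other macrophages (433) with 1 sample left out, and 187 and 234 as deposited. The causes were not tested.

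Directions of genes that mostly missed the threshold turned in 39 of the fits. By diet in macrophages, Angptl4 was -0.035 over barcodes listed in exactly 1 sample. Between the Gpnmb gate and other macrophages, Pparg was -0.17 in HFD samples alone, Dgat1 was -0.25 as deposited and -0.021 with Gpnmb alone, and Angptl4 was -0.077 at the stricter gate. With 1 sample left out, Dgat1 ranged from -0.065 to 0.22 and Angptl4 from -0.057 to 0.13. For the difference between the sides, as-deposited values were -0.57 for Fabp4, -0.82 for Fabp5, 0.14 for Dgat1 and 0.0027 for Pnpla2. With 1 sample left out it ranged from -0.27 to 0.28 for Plin2, -0.25 to 0.59 for Fabp4, -1.01 to 1.51 for Fabp5, -0.41 to 0.59 for Dgat1, -0.31 to 0.57 for Acsl1 and -0.20 to 0.016 for Pnpla2; Fabp5 passed at 1.51 (adjusted p = 0.015). By diet on the Gpnmb side, as-deposited values were -0.22 for Fabp4 and -0.61 for Fabp5 (adjusted p = 0.019), and Fabp5 ranged from -0.50 to 1.0005 with 1 sample left out. In other macrophages Fabp5 was 0.22 as deposited, and with 1 sample left out it ranged from -0.29 to 0.23 and Angptl4 from -0.12 to 0.49. HFD minus control shares of cells turned for Dgat1 unthinned (1.90 points over all cells, 2.36 in macrophages), for Pnpla2 at 1500 UMIs (-0.71 over all cells, -1.18 in macrophages) and unthinned in fibroblasts (1.17), for Pparg in fibroblasts at 4000 UMIs (5.19), and for Angptl4 in fibroblasts at 4000 UMIs (8.54) and unthinned (4.85). Their causes were not tested.

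The labels give both diets replicate numbers 1 to 3, but same-numbered samples did not deviate together: their correlations were -0.157, -0.069 and -0.122 in whole sums and -0.179, -0.017 and -0.191 in macrophages, and no HFD sample correlated best with its own number. With the replicate block, 2416 genes were called in whole sums and 2058 in macrophages. In macrophages Fabp4 (adjusted p = 0.045) and Angptl4 (0.049) then passed and Acsl1 (0.053) did not, and in whole sums Dgat1 did not (0.097).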
